A study of Mus musculus with 20 samples.

Results

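The 6 RNA libraries compared here came from 2 stromal cell populations of mouse bone marrow in which the transcription factor gene Ebf1 was targeted, 3 libraries of CAR ko cells and 3 of PaS ko cells, of 12 RNA libraries and 20 samples in the series. All genes that reached 1 FPKM in at least 3 of these 6 libraries were compared, which kept 12375 of 24347 gene symbols; the other 11972 were not tested. FPKM (fragments per kilobase of transcript, scaled per library) makes levels comparable between genes of different length. CAR ko and PaS ko cells came from Ebf1fl/fl;Prx1+/cre mice. The wt comparison used 3 CAR and 3 PaS libraries from Ebf1+/+;Prx1+/cre mice, so that the controls carried the Cre allele too. All were on the C57BL/6 background, and age, sex, pooling and the number of animals are not given in the labels. Prx1-Cre is active in limb bud mesenchyme and its descendants, so the deletion is not limited to either sorted population. Femora and tibiae were crushed and digested with collagenase. Both sorts took cells that were CD45-CD31-Lin-PDGFRα+; Sca1+ cells were called PaS and Sca1- cells CAR, so that Sca1 alone separated the gates. The labels do not say whether replicates are separate animals, and p-values measure only the spread between these libraries.

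CAR cells (CXCL12-abundant reticular cells) are the perisinusoidal stroma of the marrow. They secrete the chemokine CXCL12 and stem cell factor, which hold and feed haematopoietic stem and progenitor cells, and they carry adipocyte and osteoblast lineage transcripts. PaS cells (PDGFRα+Sca1+) are fibroblast-like mesenchymal cells near arterioles and the bone surface, known as a colony-forming, multipotent population. EBF1 is a DNA-binding factor of B cell and adipocyte development that is also expressed in marrow stroma.

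Upstream sequences are shown for 4 genes of the bone-forming program, because that program held the largest differences in favour of CAR ko cells among the named genes and because each holds a match to the RUNX core motif, the letters bound by RUNX2, the master regulator of osteoblasts. The windows are the 250 bases before the start of the RefSeq transcript (GRCm38.p6), 5′ to 3′ on the gene's strand. Bglap lies at chr3:88384467-88384716 (minus strand), Spp1 at chr5:104434861-104435110 (plus), Dmp1 at chr5:104202367-104202616 (plus) and Runx2 at chr17:44814628-44814877 (minus). Capitals mark the match, and the 4 were picked after their values were seen.
Bglap: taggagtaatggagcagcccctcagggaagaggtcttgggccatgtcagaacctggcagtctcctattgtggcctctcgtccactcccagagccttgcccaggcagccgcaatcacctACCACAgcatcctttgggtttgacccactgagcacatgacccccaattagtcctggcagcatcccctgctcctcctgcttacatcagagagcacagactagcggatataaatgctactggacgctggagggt
Spp1: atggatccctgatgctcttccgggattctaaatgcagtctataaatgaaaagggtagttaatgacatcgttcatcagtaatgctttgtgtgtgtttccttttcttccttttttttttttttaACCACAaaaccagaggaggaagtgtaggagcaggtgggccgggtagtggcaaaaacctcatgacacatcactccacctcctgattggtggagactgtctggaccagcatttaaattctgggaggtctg
Dmp1: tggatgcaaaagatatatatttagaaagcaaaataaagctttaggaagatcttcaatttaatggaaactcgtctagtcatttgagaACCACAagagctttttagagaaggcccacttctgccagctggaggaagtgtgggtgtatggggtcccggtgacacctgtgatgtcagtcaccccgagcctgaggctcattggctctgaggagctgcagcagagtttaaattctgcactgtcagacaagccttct
Runx2: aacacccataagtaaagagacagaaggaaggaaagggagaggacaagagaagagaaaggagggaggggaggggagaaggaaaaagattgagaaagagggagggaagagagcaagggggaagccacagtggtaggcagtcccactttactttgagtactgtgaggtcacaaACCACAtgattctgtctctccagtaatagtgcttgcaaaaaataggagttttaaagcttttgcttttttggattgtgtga
In each window the capitals read ACCACA, which is TGTGGT on the other strand. The first capital lies 132 bases before the start in Bglap, 128 in Spp1, 164 in Dmp1 and 80 in Runx2. Of the 16 osteoblast lineage genes with a window, 5 held TGTGGT on either strand, the fifth being Mepe. The EBF palindrome was in none of the 16, which says little about them because it is rare in all windows. Over all 32851 windows of the table, 14.05% held TGTGGT and 0.779% held the EBF palindrome. These shares count single windows, whereas a gene counted if any of its windows matched, so they are not on the same footing as the 5 of 16. A window was found for 79.4% of the tested genes, under the 80% needed, so that a comparison of shares between gene sets is void. A match is a string of letters and not a measured binding site.

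CAR ko and PaS ko cells differed at 4687 genes, 37.9% of those tested (limma, Benjamini-Hochberg adjusted p under 0.05). Of these, 2205 genes (17.8%) were higher in CAR ko and 2482 (20.1%) in PaS ko; quantile normalization turned this balance, with 2636 and 2228. Differences of more than 2-fold were found at 1517 genes (12.3%), 565 higher in CAR ko (4.57%) and 952 higher in PaS ko (7.69%), and at 736 genes with a pseudocount of 5. At least 16-fold differences were fewer, 9 in favour of CAR ko and 35 in favour of PaS ko. All differences are CAR minus PaS on the log2(FPKM + 1) scale, which understates the change of low genes, and a positive value means higher in CAR ko. The gene lists used below were chosen with earlier results of these data known, so their counts describe and do not test. Each list count below is to be read beside the shares over all tested genes, 17.8% higher in CAR ko and 20.1% higher in PaS ko. Single members outside the rule for named genes were picked after their values were seen. The median over all tested genes was 0.0089, which the scaling of the libraries holds near 0. The 3 CAR ko and 3 PaS ko values did not overlap at 5998 genes (48.5%). Library sums lay between 491801 and 526074 FPKM in all 12 libraries, and each ko library listed 11863 to 12235 genes at 1 FPKM or more. PaS wt replicate 1 listed 24.6% of symbols at 0, against 33.3% to 37.0% in the other libraries. The number of reads per library is unknown. In bulk RNA, fewer cells of a type and less RNA per cell cannot be told apart.

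**Figure D1:**
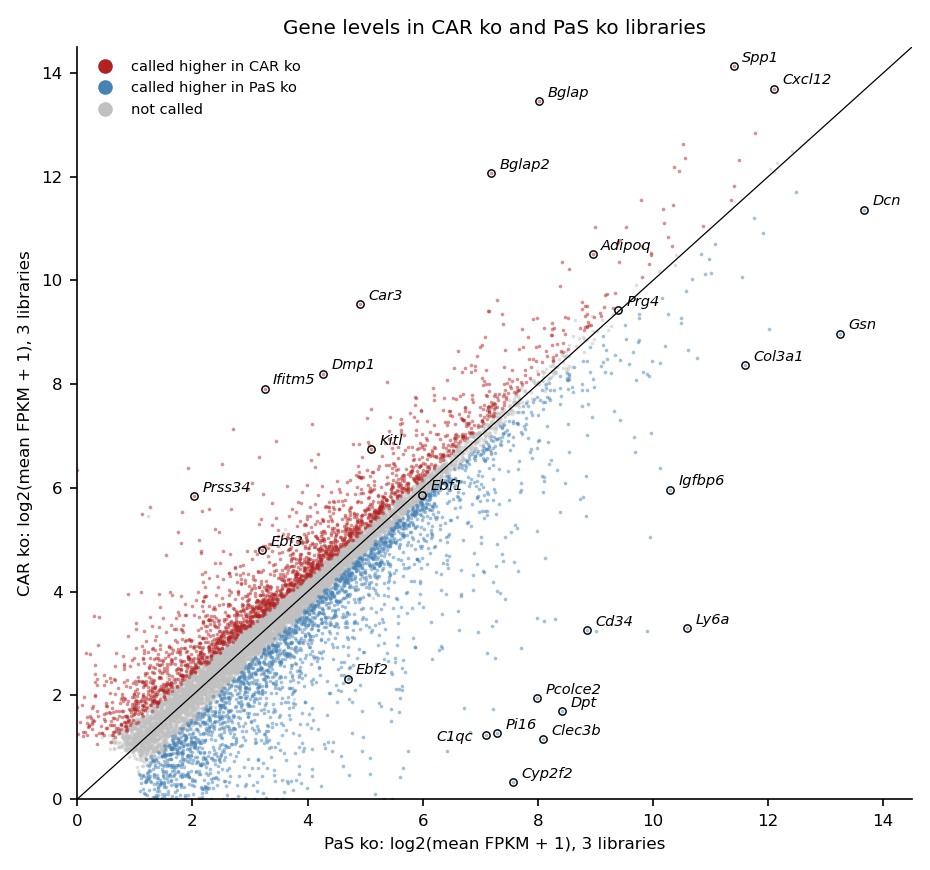
Mean level of each tested gene in CAR ko (vertical axis) against PaS ko (horizontal axis), both as log2(mean FPKM + 1) over 3 libraries, with genes called higher in CAR ko in red (2205), higher in PaS ko in blue (2482) and others in grey. Ly6a, Dpt, Clec3b and Pi16 lie far below the line of equal levels, Bglap, Bglap2 and Car3 far above it, and Ebf1 and Prg4 close to it.

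Ebf1, the targeted gene, had 56.0, 56.7 and 59.8 FPKM in CAR ko and 65.0, 61.9 and 60.7 FPKM in PaS ko. The PaS ko values were all a little above the CAR ko values, but the difference of -0.12 (SE 0.08, adjusted p = 0.25) missed the threshold, and an exact permutation test gave its smallest possible p of 0.1 for 3 against 3. The wt libraries listed 48.9, 48.5 and 46.8 FPKM in CAR wt and 55.0, 62.1 and 50.5 FPKM in PaS wt. Ebf1 was therefore not lower in the libraries labelled ko than in wt; a whole-gene FPKM counts exons outside the deleted part too, so it does not check the genotype labels. Its paralogs separated the populations in opposite directions. Ebf2 had 3.78, 3.69 and 4.52 FPKM in CAR ko and 25.9, 23.1 and 25.8 FPKM in PaS ko. Every PaS ko library was above every CAR ko library, with a difference of -2.38 (SE 0.12, adjusted p = 6.6e-11). Ebf3 had 25.5, 29.9 and 24.7 FPKM in CAR ko and 9.69, 9.05 and 6.08 FPKM in PaS ko, the reverse order without overlap, and a difference of 1.60 (SE 0.16, adjusted p = 3.2e-07). Ebf4, the lowest of the family, differed by -0.56 (SE 0.23, adjusted p = 0.062). Prrx1, whose regulatory sequence drives the Cre, was lower in CAR ko, with a difference of -0.61 (SE 0.10, adjusted p = 7.3e-05).

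Ly6a, which encodes the Sca1 antigen used in the sort, had 6.67, 12.3 and 7.53 FPKM in CAR ko and 1539, 1524 and 1590.3 FPKM in PaS ko. The gate fixed this direction, and the levels show that the RNA followed it. Pdgfra, which both gates required, was present in all libraries, with 68.3, 60.6 and 65.8 FPKM in CAR ko and 111, 107 and 116 FPKM in PaS ko. It was higher in PaS ko, with a difference of -0.77 (SE 0.07, adjusted p = 8.4e-08). A pair of markers excluded by the gates were low in both populations: Ptprc (CD45) averaged 2.50 ± 0.600 FPKM in CAR ko and 8.54 ± 0.199 FPKM in PaS ko (SD, n = 3, as for every mean below) and Pecam1 (CD31) averaged 1.79 ± 0.329 FPKM in CAR ko and 4.75 ± 0.756 FPKM in PaS ko. Both were nonetheless higher in PaS ko, with differences of -1.46 and -1.04.

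The PaS and fibroblast program was the widest separation. All 26 of the listed markers were tested and all 26 were called higher in PaS ko, with a median difference of -3.46. The list includes Ly6a, whose direction the gate fixed. Dpt, which encodes the matrix protein dermatopontin of universal fibroblasts, had 2.12, 2.59 and 2.03 FPKM in CAR ko and 345, 314 and 371 FPKM in PaS ko. The groups lay far apart, with a difference of -6.73 (SE 0.09, adjusted p = 1.1e-17). Cd34, a sialomucin of progenitors and adventitial fibroblasts, had 9.37, 9.11 and 7.30 FPKM in CAR ko and 442, 472 and 468 FPKM in PaS ko and a difference of -5.60 (SE 0.10, adjusted p = 2.5e-16). Pi16, another adventitial fibroblast marker, had 1.64, 1.17 and 1.45 FPKM in CAR ko and 174, 168 and 126 FPKM in PaS ko. None of the CAR ko values came near the PaS ko values, and the difference was -6.01 (SE 0.16, adjusted p = 2.0e-14). Pcolce2, which enhances procollagen processing, differed by -6.03 (SE 0.08, adjusted p = 7.0e-18), and Clec3b (tetranectin) by -6.98 (SE 0.19, adjusted p = 2.0e-14). Ly6c1, a neighbour of Ly6a in the same antigen family, differed by -6.67 (SE 0.13, adjusted p = 3.8e-16). Thy1 (CD90) averaged 0.287 ± 0.227 FPKM in CAR ko and 12.9 ± 0.0457 FPKM in PaS ko, and Cd248 (endosialin) averaged 6.49 ± 0.189 FPKM in CAR ko and 209 ± 5.38 FPKM in PaS ko. Gsn, the actin-severing protein gelsolin, was among the most abundant transcripts of PaS ko cells at 499, 498 and 508 FPKM in CAR ko and 9491, 9583 and 10142 FPKM in PaS ko; CAR ko cells held less in every library but were far from 0. The smallest differences of the list were those of Efemp1 (-0.44) and Fstl1 (-0.52). Outside the list, the detoxifying cytochrome Cyp2f2 differed by -7.26 (SE 0.16, adjusted p = 2.9e-15) and the methyltransferase Inmt by -5.56 (SE 0.22, adjusted p = 3.5e-12).

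CAR markers were higher in CAR ko but by smaller steps. Of 26 listed and tested, 24 were called higher in CAR ko, Angptl1 was higher in PaS ko and Ebf1 was not called; the median difference was 1.42. Cxcl12 had 14684, 12486 and 12729 FPKM in CAR ko and 4835, 4203 and 4127 FPKM in PaS ko. Every CAR ko library was above every PaS ko library, with a difference of 1.60 (SE 0.07, adjusted p = 8.7e-12), yet Cxcl12 was also among the abundant transcripts of PaS ko cells. Lepr, the leptin receptor that marks perisinusoidal stroma, had 704, 596 and 559.7 FPKM in CAR ko and 259.9, 245 and 248 FPKM in PaS ko and a difference of 1.29 (SE 0.08, adjusted p = 5.2e-10). Foxc1, a forkhead factor needed for CAR cell identity, had 103, 102 and 98.8 FPKM in CAR ko and 41.5, 48.3 and 41.1 FPKM in PaS ko. The groups did not overlap, and the difference was 1.20 (SE 0.07, adjusted p = 3.7e-10). Adipoq (adiponectin) averaged 1453 ± 10.00 FPKM in CAR ko and 494 ± 22.0 FPKM in PaS ko, a difference of 1.56. Tnc (tenascin C), Gdpd2 and Agt (angiotensinogen) followed Adipoq in the order of p-values, with differences of 2.27, 1.97 and 1.83.

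Niche factors for blood cells followed in part. Of 24 listed, 22 were tested, 15 were called higher in CAR ko, 6 higher in PaS ko, and the median was 0.99. Kitl, which encodes stem cell factor, had 99.9, 106 and 112 FPKM in CAR ko and 37.3, 30.1 and 32.4 FPKM in PaS ko. The groups did not overlap, and the means differed 3.18-fold, a difference of 1.65 (SE 0.08, adjusted p = 6.9e-11). Il7, the B lymphoid growth factor, had 36.8, 32.8 and 31.5 FPKM in CAR ko and 13.1, 8.09 and 13.5 FPKM in PaS ko, again without overlap, and differed by 1.49 (SE 0.16, adjusted p = 1.1e-06). Csf1, the macrophage growth factor, differed by 1.11, and Vcam1, an adhesion ligand for haematopoietic cells, by 0.94. The osteoclast factor RANKL (Tnfsf11) was higher in CAR ko by 1.42, while its decoy receptor Tnfrsf11b had a difference of -0.55 (adjusted p = 0.0031), that is, higher in PaS ko. Nov (CCN3), a matricellular regulator of stem cells, ran the other way with 8.25, 11.3 and 9.91 FPKM in CAR ko and 250.3, 285 and 293 FPKM in PaS ko. Its difference of -4.68 (SE 0.09, adjusted p = 3.8e-16) was the largest of the list in favour of PaS ko. Igf1 was also higher in PaS ko, averaging 55.2 ± 1.77 FPKM in CAR ko and 122 ± 0.934 FPKM in PaS ko.

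The osteoblast program held the top of the CAR ko side. The gates named no osteoblast marker, and whether these transcripts came from CAR cells or from osteoblasts in the same sort was not tested. Of 27 listed genes, 26 were tested and all 26 were called higher in CAR ko, with a median of 2.04; the call of Col1a1 rests on 1 CAR ko library and turns with its zeros kept, as given below. Bglap, which encodes the bone matrix hormone osteocalcin and whose upstream sequence is shown above, had 8449, 11942 and 13417 FPKM in CAR ko and 269, 254 and 257 FPKM in PaS ko. The lowest CAR ko library stood far above the highest PaS ko library, the means differed 43.3-fold, and the difference was 5.41 (SE 0.13, adjusted p = 6.4e-15). Bglap2 is nearly identical, so reads can be split between the pair; it had 3229, 4561 and 5152 FPKM in CAR ko and 149, 131 and 157 FPKM in PaS ko and a difference of 4.86 (SE 0.12, adjusted p = 9.9e-15). Spp1 (osteopontin), among the most abundant transcripts of the CAR ko libraries, had 17355, 18480.0 and 18277 FPKM in CAR ko and 2879, 2666 and 2566 FPKM in PaS ko. The groups did not overlap and differed by 2.74 (SE 0.06, adjusted p = 3.7e-15). Dmp1, a matrix protein of osteocytes and late osteoblasts, had 273, 302 and 307 FPKM in CAR ko and 24.2, 16.2 and 14.7 FPKM in PaS ko and differed by 3.96 (SE 0.15, adjusted p = 1.4e-12). Ifitm5, a membrane protein of mineralizing osteoblasts, differed by 4.67 (SE 0.21, adjusted p = 1.1e-11), and the carbonic anhydrase Car3 by 4.63 (SE 0.09, adjusted p = 3.8e-16).

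The regulators of that program differed too, at lower levels. Runx2 had 36.8, 39.7 and 37.9 FPKM in CAR ko and 10.1, 9.06 and 9.12 FPKM in PaS ko, a difference of 1.91 (SE 0.11, adjusted p = 3.7e-10). Sp7 (osterix), which acts after Runx2, had 47.3, 57.6 and 49.1 FPKM in CAR ko and 11.3, 9.09 and 7.94 FPKM in PaS ko. Neither gene overlapped between the groups, and Sp7 differed by 2.33 (SE 0.13, adjusted p = 1.6e-10). Alpl, the alkaline phosphatase of mineralizing cells, averaged 683 ± 41.1 FPKM in CAR ko and 141 ± 6.03 FPKM in PaS ko. The type I collagen genes need care. Col1a1 had 4677 FPKM in CAR ko replicate 1 and was listed at 0 in the other CAR ko libraries, against 1317, 1332 and 1293 FPKM in PaS ko. Col1a2 was listed at 0 in CAR ko replicate 2, with 5144 and 5333 FPKM in the other CAR ko libraries and 1490.2, 1637 and 1389.5 FPKM in PaS ko. Such zeros beside high values in the same group were treated as failed estimates and dropped from the fit. The differences of 1.83 for Col1a1 and 1.80 for Col1a2 thus rest on 1 and 2 CAR ko libraries. With the zeros kept, Col1a1 had a difference of -6.30 (adjusted p = 0.0243) and Col1a2 of -2.32 (adjusted p = 0.427).

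**Figure D2:**
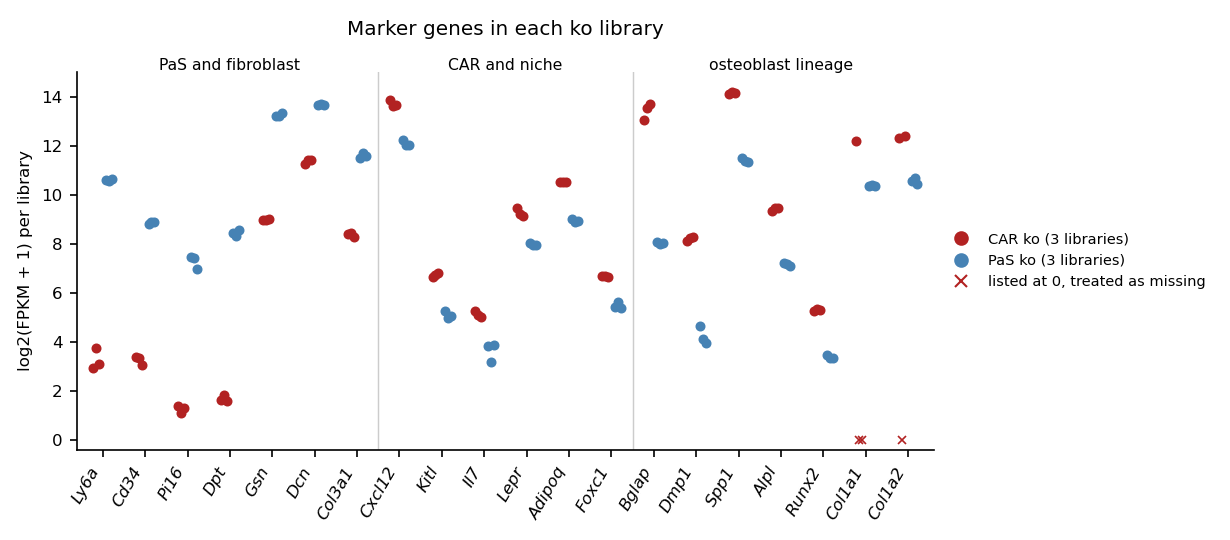
Level of 20 marker genes in each ko library as log2(FPKM + 1), CAR ko in red and PaS ko in blue, each point 1 library, crosses marking the 3 zeros treated as missing. The groups separate at each gene shown, with Pi16 and Dpt lowest in CAR ko, Ly6a and Cd34 low there and Bglap, Spp1 and Dmp1 high there.

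Cartilage genes were split between the populations. Of 27 listed genes 22 were tested, 5 were higher in CAR ko, 11 in PaS ko, and 6 were not called (median -0.31). Col2a1, the main collagen of cartilage, had 206, 289 and 287 FPKM in CAR ko and 32.5, 45.0 and 44.4 FPKM in PaS ko. All CAR ko values were above all PaS ko values, 6.42-fold by the means, a difference of 2.65 (SE 0.13, adjusted p = 5.6e-11). The type XI chains were further apart, Col11a1 at 3.46 and Col11a2 at 4.43 (SE 0.16, adjusted p = 7.7e-13). On the PaS ko side stood Comp, a matrix protein of cartilage and tendon, averaging 423 ± 3.81 FPKM in CAR ko and 1178 ± 78.1 FPKM in PaS ko, and the small proteoglycan Epyc at -3.75. Sox9, the master factor of chondrocytes, averaged 26.8 ± 1.42 FPKM in CAR ko and 23.4 ± 0.693 FPKM in PaS ko and was not called (adjusted p = 0.13). Acan, the aggrecan core protein, was not called either (0.46, adjusted p = 0.12), but without CAR ko replicate 1 it was (0.68, adjusted p = 0.0285). Prg4, the joint lubricant, was abundant in both at 720.0, 688 and 666 FPKM in CAR ko and 666, 667 and 692 FPKM in PaS ko; the values overlapped, with a difference of 0.03 (SE 0.09, adjusted p = 0.81) and an exact permutation p of 0.7.

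Tendon and periosteal genes leaned to PaS ko, with 10 of 13 tested higher there, 2 higher in CAR ko and a median of -1.25. Angptl7 had 41.5, 43.5 and 43.6 FPKM in CAR ko and 438, 464 and 463 FPKM in PaS ko. That was the smallest p-value of this list, with a difference of -3.38 (SE 0.06, adjusted p = 2.5e-16). Thbs4 (thrombospondin 4 of tendon) differed by -2.61, the leucine-rich proteoglycan Aspn (asporin) by -2.95, and the tendon factor Scx by -1.12. The 2 exceptions were Egr1 (0.57), which is also an immediate early gene, and Cthrc1 (1.24).

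Most matrix genes differed, in both directions. All 28 tested proteoglycan and matricellular genes, of 29 listed, were called, 12 higher in CAR ko and 16 in PaS ko (median -0.82). Among 24 tested collagens of 29 listed, 7 were higher in CAR ko and 12 in PaS ko. Col3a1, the fibrillar collagen of soft connective tissue, had 334, 346 and 308 FPKM in CAR ko and 2908, 3356 and 3047 FPKM in PaS ko. It thus ran opposite to the type I genes, with a difference of -3.23 (SE 0.06, adjusted p = 3.7e-16). Col14a1 differed by -5.07, while Col13a1, a membrane collagen, was higher in CAR ko by 3.17. Dcn (decorin) was the most abundant matrix transcript named here in PaS ko at 2402, 2758 and 2749.6 FPKM in CAR ko and 13008, 13234 and 12986 FPKM in PaS ko. CAR ko cells held less without overlap, a difference of -2.31 (SE 0.06, adjusted p = 8.1e-15). Of 27 elastic fibre and basement membrane genes, 9 were higher in CAR ko and 16 in PaS ko: Mfap5 (-5.79), Fbln2 (-4.55) and Ltbp4 (-4.48) stood on the PaS side and Fbln5 (1.35) on the CAR side. Of 28 proteases and inhibitors, 12 were higher in CAR ko and 15 in PaS ko. The collagenase Mmp13 had 2065, 2023 and 2166 FPKM in CAR ko and 526, 491 and 502 FPKM in PaS ko and differed by 2.04 (SE 0.06, adjusted p = 2.8e-14). The metalloproteinase inhibitors Timp3 and Timp2 were higher in PaS ko, at -2.17 and -1.73.

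Secreted Wnt antagonists were divided between the populations. Wif1, which binds Wnt ligands, had 388, 389.6 and 420.2 FPKM in CAR ko and 94.1, 103 and 94.1 FPKM in PaS ko. It was 4.11-fold higher in CAR ko by the means, a difference of 2.03 (SE 0.07, adjusted p = 2.1e-13). Dkk2, a blocker of the Wnt co-receptor LRP6, had 0.486, 0.415 and 0.229 FPKM in CAR ko and 24.6, 25.3 and 26.0 FPKM in PaS ko. CAR ko values were near 0, and the difference was -4.26 (SE 0.15, adjusted p = 4.4e-13). Dkk3 (-1.49) and Sfrp2 (-1.46) were also higher in PaS ko. Among ligands, Wnt2 was listed at 0 in all CAR ko libraries and averaged 5.06 FPKM in PaS ko, and Wnt4 was higher in CAR ko (2.18). The stem cell Wnt agonists Rspo2 and Rspo3 were higher in CAR ko, at 1.19 and 1.47. Of 39 pathway genes 33 were tested, 12 higher in CAR ko and 14 in PaS ko.

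In the TGF-beta and BMP pathway, 15 of 35 tested genes (38 listed) were higher in CAR ko and 12 in PaS ko. The ligand Bmp3, which is made by bone cells, was higher in CAR ko with 32.7, 35.3 and 35.7 FPKM in CAR ko and 2.65, 2.79 and 1.67 FPKM in PaS ko and a difference of 3.42 (SE 0.15, adjusted p = 1.2e-11). The BMP antagonist Chrdl1 was higher in CAR ko (1.52) and the antagonist Nbl1 in PaS ko (-2.90), as was the induced matrix protein Tgfbi (-3.27). Tgfb2 averaged 3.86 ± 0.625 FPKM in CAR ko and 19.3 ± 2.58 FPKM in PaS ko. Growth factor genes were balanced, with 13 of 35 tested higher in CAR ko and 14 in PaS ko (40 listed). Igfbp6, which binds IGF-II, had 55.5, 63.4 and 65.6 FPKM in CAR ko and 1210.0, 1269 and 1286 FPKM in PaS ko. The PaS ko excess was 20.4-fold by the means, a difference of -4.33 (SE 0.07, adjusted p = 1.5e-16). Fgfr2, an FGF receptor of osteoprogenitors, was higher in CAR ko by 1.67, and Figf (VEGF-D) was higher in PaS ko with -3.49. Fgf10 was listed at 0 in all 3 CAR ko libraries and averaged 4.01 FPKM in PaS ko. The PDGF receptors split, Pdgfrb being higher in CAR ko by 0.88.

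Notch and hedgehog genes were tested at 20 of 26 listed, 8 higher in CAR ko and 6 in PaS ko. The Notch target Heyl was higher in CAR ko (1.00), as were Hey1 (0.89) and the receptor Notch3 (0.99). The hedgehog co-receptors Gas1 (-1.83), Cdon (-1.95) and Boc (-1.12) were all higher in PaS ko. Of 28 tested axon guidance genes (32 listed), 14 were higher in CAR ko and 6 in PaS ko. Nrp2, a semaphorin co-receptor, averaged 100.2 ± 5.89 FPKM in CAR ko and 17.1 ± 1.40 FPKM in PaS ko, and the ephrin Efnb1 differed by 1.27. The ligands Sema3c (-3.69) and Ntn1 (-2.19) were higher in PaS ko. Adhesion genes were called in both directions, 11 and 7 of 25 tested (30 listed). The cadherin Cdh2 (2.28) and Cadm1 (3.02) were higher in CAR ko, and Cdh13 (-3.38) and the tetraspanin Cd9 (-1.32) in PaS ko.

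Among 30 tested stromal transcription factors of 32 listed, 9 were higher in CAR ko and 14 in PaS ko. The homeobox gene Meox2 had 1.58, 1.91 and 2.07 FPKM in CAR ko and 38.5, 46.3 and 43.3 FPKM in PaS ko. It was close to absent in CAR ko, a difference of -3.94 (SE 0.11, adjusted p = 2.9e-14). Prrx2 (-2.85), Osr1 (-3.05) and Osr2 (-2.72), factors of limb and joint mesenchyme, were also higher in PaS ko. Runx1 (1.18), Snai2 (1.13) and the limb factor Shox2 (1.35) were higher in CAR ko. Of the Hox genes, which keep positional identity, 15 of 33 passed the filter and 11 of these missed the threshold. Over all tested genes, 7688 of 12375 missed it too, so this share is not particular to Hox genes. Hoxb2 (1.67) and Hoxa5 (0.89) were higher in CAR ko, and Hoxd8 (-1.46) and Hoxd9 (-1.53) in PaS ko.

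Adipocyte genes were split, with 8 of 19 tested (26 listed) higher in CAR ko and 7 in PaS ko. Pparg, the master factor of adipocytes, averaged 43.3 ± 2.29 FPKM in CAR ko and 29.8 ± 3.21 FPKM in PaS ko, and the difference of 0.53 (SE 0.11, adjusted p = 0.00084) was modest. Cebpa was further apart, averaging 20.3 ± 1.51 FPKM in CAR ko and 8.40 ± 0.879 FPKM in PaS ko, as was the lipase Lpl (1.33). Fabp4 (-1.78) and the adipsin gene Cfd were higher in PaS ko. Cfd had 0.842, 0.643 and 0.710 FPKM in CAR ko and 35.0, 30.4 and 32.9 FPKM in PaS ko. CAR ko values were near 0, and the difference was -4.29 (SE 0.20, adjusted p = 2.1e-11). Cholesterol synthesis genes leaned to PaS ko, 8 of 20 tested against 2 (23 listed). The enzymes Msmo1 (-0.72), Fdps (-0.77) and Sqle (-0.70) were higher in PaS ko.

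Chemokines and cytokines divided by gene, 5 of 21 tested (25 listed) being higher in CAR ko and 8 in PaS ko. Ccl11 (eotaxin) had 8.13, 10.1 and 9.22 FPKM in CAR ko and 145, 143 and 154 FPKM in PaS ko. It was low in every CAR ko library, a difference of -3.87 (SE 0.14, adjusted p = 8.4e-13). The alarmin Il33 (-3.47) and Ccl8 (-5.20) were also higher in PaS ko, whereas Il1rn, the interleukin 1 receptor antagonist, was higher in CAR ko (1.59), as was the monocyte attractant Ccl2 (1.23). Interferon-stimulated genes leaned to CAR ko, with 13 of 24 tested (26 listed) against 2, by small amounts (median 0.36). Bst2 (tetherin) averaged 266 ± 18.5 FPKM in CAR ko and 133 ± 7.01 FPKM in PaS ko. Rsad2 (viperin, -1.14) and Ifit2 (-0.90) were the exceptions.

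Immediate early genes, which cells switch on within minutes of tissue digestion, were higher in CAR ko at 16 of 24 and in PaS ko at 4, with a median of 0.27. Fosb averaged 116 ± 10.4 FPKM in CAR ko and 60.7 ± 3.73 FPKM in PaS ko, Socs3 537 ± 5.10 FPKM in CAR ko and 302 ± 4.66 FPKM in PaS ko and Myc 172 ± 5.27 FPKM in CAR ko and 98.3 ± 7.31 FPKM in PaS ko. Their part in the other differences was not tested. Few cell cycle genes were called. Of 27 tested (28 listed), 23 were not called, and the median was 0.08. Over all tested genes, 7688 of 12375 were not called. Mki67, a marker of cycling cells, averaged 3.98 ± 0.237 FPKM in CAR ko and 5.95 ± 0.509 FPKM in PaS ko and was the called gene on the PaS ko side (adjusted p = 0.0081). Ccnb1, Aurka and Mcm4 were higher in CAR ko by 0.46, 0.40 and 0.26. Those 3 calls were lost when the 6 ko libraries were fitted alone (adjusted p = 0.0702, 0.054 and 0.0755).

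**Figure D3:**
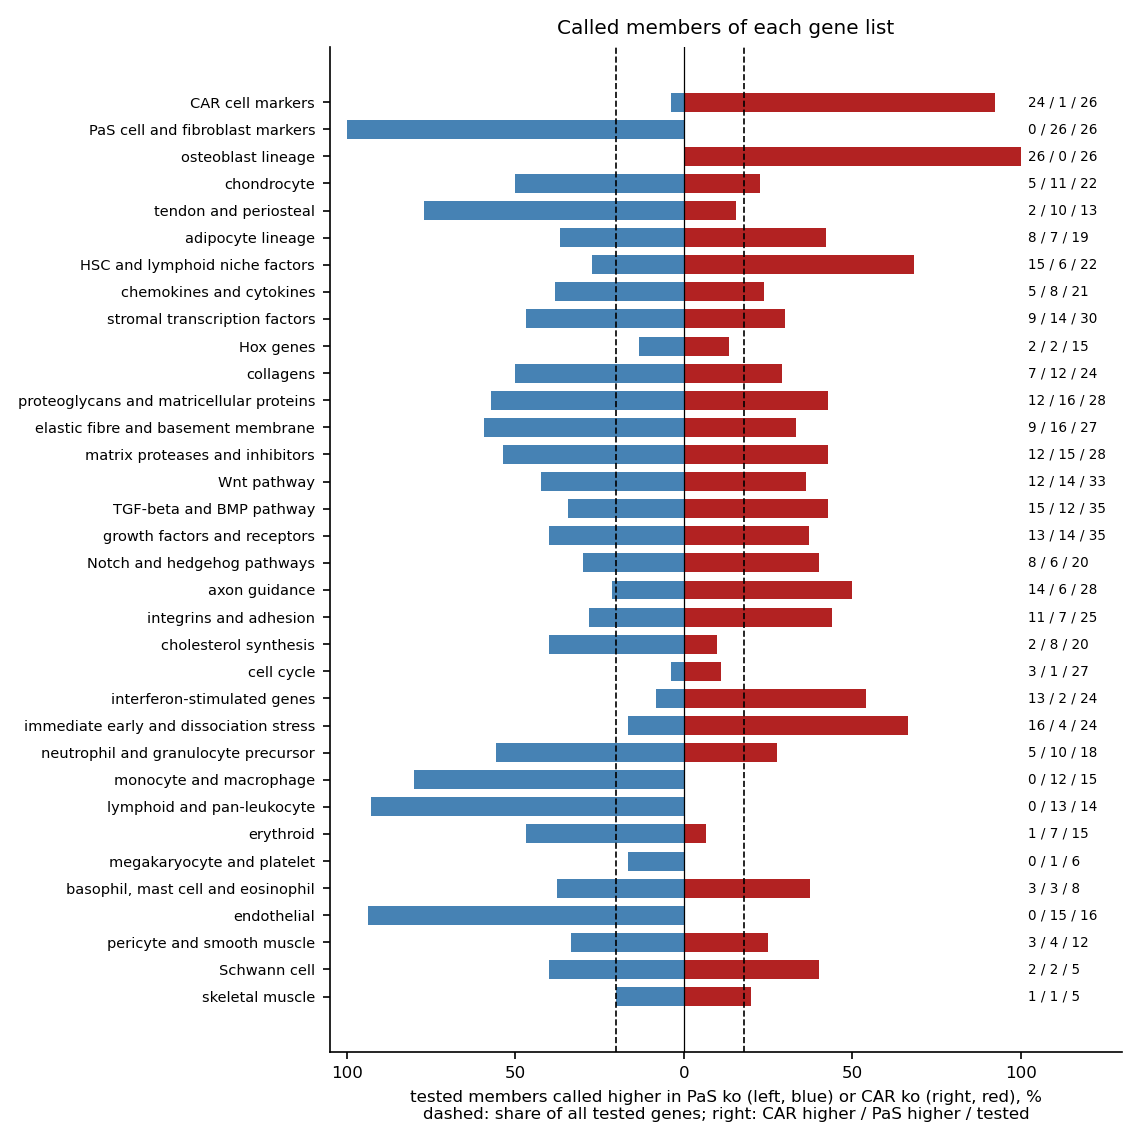
Share of the tested members of each of 34 gene lists called higher in PaS ko (blue, to the left) or in CAR ko (red, to the right), with dashed lines at the shares over all tested genes (20.1% and 17.8%). PaS and osteoblast markers reach the full width in opposite directions, and cell cycle and Hox genes stay below both lines.

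Markers of several other cell types differed between the populations, while other such lists were split, and their part in the results above was not tested. A summed level was taken over the 93 listed blood cell genes with values, whether tested or not. It was 1.63% to 1.73% of all FPKM in CAR ko and 2.79% to 2.89% in PaS ko. Sums of single lists below also cover untested members. Macrophage genes led: 12 of 15 tested (17 listed) were higher in PaS ko and none in CAR ko, summing to 229.9 to 249 FPKM in CAR ko and 939 to 1049.9 FPKM in PaS ko. C1qc, a complement subunit made by macrophages, had 1.19, 0.996 and 1.86 FPKM in CAR ko and 155, 117 and 139.8 FPKM in PaS ko. It was close to 0 in every CAR ko library and differed by -5.88 (SE 0.21, adjusted p = 8.2e-13). Its partners C1qa (-5.32) and C1qb (-5.50), the lysosomal Cd68 (-2.75) and the ficolin Fcna (-5.54) behaved alike. Of 14 tested lymphoid and leukocyte genes (19 listed), 13 were higher in PaS ko, among them Laptm5 (-2.13), the tetraspanin Cd53 (-1.38) and the pre-B receptor chain Igll1 (-2.43); they summed to 150.3 to 153 FPKM and 332 to 370.3 FPKM.

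Granulocyte genes were divided. Of 18, 10 were higher in PaS ko, among them S100a9 with 1442, 1366 and 1283 FPKM in CAR ko and 1966, 2019.9 and 2059.8 FPKM in PaS ko and the later granule genes Ngp (-0.72) and Camp (-0.78). The 5 higher in CAR ko were primary granule or early myeloid genes, Elane (0.87), Mpo (0.58), Prtn3 (0.62), Ctsg (0.74) and Ms4a3 (0.55). The list summed to 4776 to 5401 FPKM in CAR ko and 7092 to 7256 FPKM in PaS ko. The basophil protease Prss34 had 65.4, 52.4 and 50.8 FPKM in CAR ko and 3.01, 1.79 and 4.46 FPKM in PaS ko. All CAR ko values were above all PaS ko values, by 3.85 (SE 0.26, adjusted p = 3.4e-09). Mcpt8, another basophil protease, followed with 42.1, 31.4 and 29.9 FPKM in CAR ko and 4.47, 5.94 and 3.11 FPKM in PaS ko. The eosinophil granule gene Prg2 ran the other way at -2.98. Of 8 tested genes of that list (12 listed), 3 were higher in each direction. Globin genes share reads among near-identical copies. Hba-a1 averaged 621 ± 102 FPKM in CAR ko and 1432 ± 213 FPKM in PaS ko, and 7 of 15 tested erythroid genes (16 listed) were higher in PaS ko and 1 in CAR ko; the list summed to 2863 to 3248 FPKM in CAR ko and 5194 to 5565 FPKM in PaS ko.

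Among the ko libraries, CAR ko replicate 2 stood apart in platelet genes. Pf4, picked after its values were seen, had 12.5, 145 and 16.2 FPKM in CAR ko and 31.2, 22.1 and 33.1 FPKM in PaS ko, and Gp9 had 0.662, 11.4 and 1.29 FPKM in CAR ko and 1.02, 1.48 and 1.94 FPKM in PaS ko. The list summed to 21.4 to 290.8 FPKM in CAR ko and 44.4 to 57.0 FPKM in PaS ko. In wt it summed to 199 to 504 FPKM in CAR and 372 to 441 FPKM in PaS, so that 290.8 FPKM lay within the CAR wt range. Of 12 genes, 6 passed the filter and 1 was called, higher in PaS ko, against 3 without CAR ko replicate 2. Without it, 4142 genes were called in all. Endothelial genes were higher in PaS ko at 15 of 16 tested (20 listed), at low levels that summed to 74.8 to 88.0 FPKM in CAR ko and 293 to 304 FPKM in PaS ko. Ramp2 had 34.9, 44.3 and 35.1 FPKM in CAR ko and 195, 190.2 and 193 FPKM in PaS ko and was the largest part of that sum. The defining gene Cdh5 averaged 0.391 ± 0.182 FPKM in CAR ko and 1.11 ± 0.0794 FPKM in PaS ko. With a filter of 5 FPKM, 6 endothelial genes were called. Pericyte genes were split, 3 of 12 tested (15 listed) being higher in CAR ko and 4 in PaS ko, and they summed to 327 to 335 FPKM and 202 to 208 FPKM, mostly Pdgfrb and Myl9. Schwann cell genes (5 of 11 tested, 2 called each way) summed to 235 to 256 FPKM in CAR ko and 525 to 553 FPKM in PaS ko, of which Pmp22, which fibroblasts also express, held most (-1.58). Skeletal muscle genes (5 of 13 tested, 1 called each way) summed to at most 15.8 FPKM in any ko library, with 3 genes at 0 in all libraries of each group; both calls, Tnnc2 and Tnnt3, were lost without CAR ko replicate 2.

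**Figure D4:**
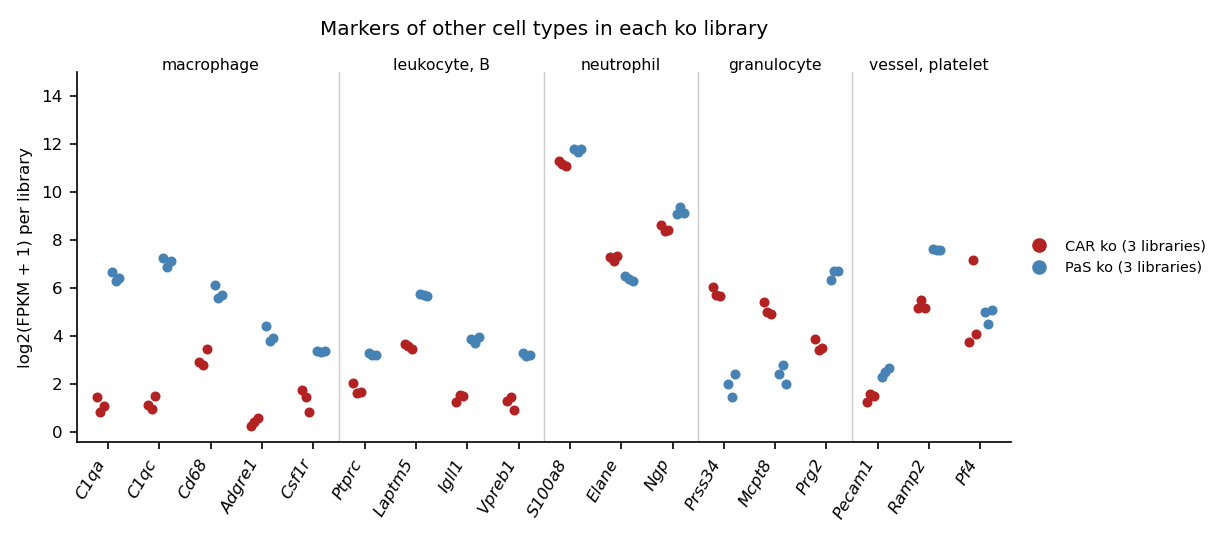
Level of 18 genes of other cell types in each ko library as log2(FPKM + 1), CAR ko in red and PaS ko in blue, each point 1 library. Macrophage and B lineage genes are higher in every PaS ko library, Prss34, Mcpt8 and Elane in every CAR ko library, and Pf4 is high in CAR ko replicate 2 alone among the 6.

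Most of the separation was also present between wt CAR and wt PaS cells. In wt, 5440 of the same genes were called (44.0%), 2613 higher in CAR (21.1%) and 2827 higher in PaS (22.8%). Both comparisons called 3492 genes in the same direction, which is 74.5% of the ko calls and 64.2% of the wt calls. Across the 12375 genes, which are not independent replicates, the ko and wt differences had a Pearson r of 0.87. The slope of ko on wt through the origin was 0.82, which does not by itself show a smaller separation in ko. The comparisons share no library. The difference between the comparisons was itself tested, and 868 genes (7.01%) passed, 433 with a higher CAR minus PaS value in ko (3.5%) and 435 with a lower one (3.52%); without PaS wt replicate 1, 687 passed. Of the 1136 genes called in ko and not in wt, 152 passed that test, as did 279 of the 1889 called in wt and not in ko. A further 59 genes were called in opposite directions.

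Both marker sets that define the populations were closer together in ko at part of their genes. Of 26 PaS markers, 12 had a smaller gap in ko than in wt, and 1, Ly6e, a larger one; the median was -3.46 in ko and -4.34 in wt. Ly6a had 4.03, 4.38 and 5.58 FPKM in CAR wt and 1972, 1740.2 and 2176 FPKM in PaS wt, beside the ko values given above. The CAR ko values, all low, lie above the CAR wt values, and the PaS ko values lie below the PaS wt values. The difference of the differences was 1.10 (adjusted p = 0.0044). Ackr3, the scavenger receptor for CXCL12, changed by 1.89 (adjusted p = 2.2e-07). Of 26 CAR markers, 7 had a smaller gap in ko and none a larger one, among them Adipoq (-0.44, adjusted p = 0.0011); the medians were 1.42 and 1.56. Osteoblast genes went the other way, with 7 of 26 further apart in ko and none closer. Alpl was one of them (0.36, adjusted p = 0.033), but that call was lost in 9 of the alternative fits.

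Cartilage genes held the largest downward changes. Lect1 (chondromodulin) had 26.6, 35.4 and 34.2 FPKM in CAR wt and 3.93, 2.01 and 3.23 FPKM in PaS wt, against 8.84, 6.14 and 6.64 FPKM in CAR ko and 13.1, 11.8 and 15.0 FPKM in PaS ko. It was highest in CAR wt and changed sides, being called higher in PaS ko (-0.81, adjusted p = 0.0015), and the difference of the differences was -3.86 (adjusted p = 7.3e-08). Col9a3 and Col9a2, chains of the cartilage collagen IX, also lost their excess in CAR cells. Col9a3 had 24.2, 32.5 and 30.5 FPKM in CAR wt and 2.77, 2.14 and 2.12 FPKM in PaS wt and changed by -3.69 (adjusted p = 5.7e-09); it too was called higher in PaS ko (-0.52, adjusted p = 0.006). Col9a2 changed by -3.47 (adjusted p = 1.6e-07) and was not called in ko. Col2a1 remained higher in CAR ko but by less (-1.62, adjusted p = 4.7e-05). Prg4 had 238, 226 and 313 FPKM in CAR wt and 1602, 1714 and 1634 FPKM in PaS wt. It was a PaS-enriched gene in wt (-2.68) and was not called in ko, a change of 2.71 (adjusted p = 1.9e-09). The proprotein convertase Pcsk6 (2.30, adjusted p = 1.9e-09) and the adhesion receptor Adgrd1 (1.88, adjusted p = 1.1e-06) moved in the same direction.

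**Figure D5:**
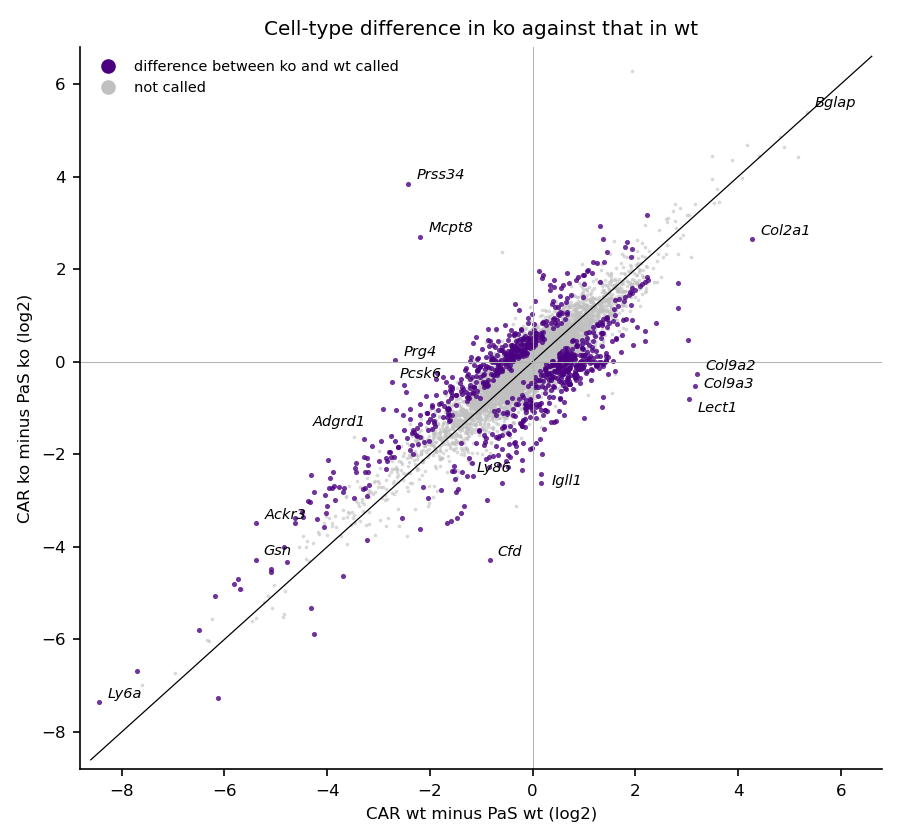
CAR minus PaS difference (log2) of each tested gene in ko (vertical axis) against wt (horizontal axis), with the line of equal differences; the 868 genes whose difference between ko and wt was called are purple. Lect1 and Col9a3 go from well above 0 in wt to below 0 in ko, Col9a2 to near 0, Prg4 from below 0 to near 0, and Prss34 and Mcpt8 from below to above 0.

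Genes of blood cells were among those that differed most between ko and wt. Prss34 had 2.56, 6.72 and 2.35 FPKM in CAR wt and 22.1, 24.3 and 23.4 FPKM in PaS wt. It was higher in PaS wt than in CAR wt and higher in CAR ko than in PaS ko, a change of 6.28 (adjusted p = 2.7e-08). Mcpt8 changed by 4.90 (adjusted p = 5.7e-09), while Igll1 (-2.59, adjusted p = 8.4e-06) and the myeloid and B cell gene Ly86 (-2.13, adjusted p = 1.6e-05) changed downward. The CAR minus PaS value of the adipsin gene Cfd, of the adipocyte list, was also lower in ko (-3.45, adjusted p = 9.9e-07). In PaS cells, Cfd averaged 2.64 ± 0.351 FPKM (wt) and 32.8 ± 2.31 FPKM (ko). In CAR cells, Cfd was low in both genotypes, at 1.11 ± 0.699 FPKM (wt) and 0.731 ± 0.101 FPKM (ko). The 93 blood cell genes summed to 3.32% to 3.80% of FPKM in CAR wt and 5.99% to 6.33% in PaS wt, above both ko groups. Of 15 erythroid genes 12 had a lower CAR minus PaS value in ko, as did 13 of 27 cell cycle genes, whose median was 0.70 in wt and 0.08 in ko.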

How the data were processed

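RNA was measured in 12 libraries (4 groups of 3). The 8 chromatin accessibility samples were not analysed here. Libraries were made with SMART-Seq v4 from oligo dT-enriched RNA, per the labels' protocols. The submitters' processing notes name the build mm10 and the tools Cuffnorm 2.2.1, Cufflinks 2.2.1, TopHat2 2.0.14 and bcl2fastq 2.17.1.14. The authors deposited FPKM per gene symbol; strand use is not given in the sources used here, and read depth is unknown.

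From these values, a gene was kept if 3 of the 6 ko libraries or more listed it at no less than 1 FPKM, 1 was added as pseudocount, and log2 values were fitted over 4 groups with limma 3.58.1 (R 4.3.3, trended eBayes, Benjamini-Hochberg adjustment, threshold 0.05). The difference between ko and wt was an interaction contrast. A 0 beside at least 100 FPKM in another library of its group was set missing. On simulated data for the ko comparison, 67, 67 and 66 of 12375 genes were changed by log2 0.5, 1 and 2. Of these, 56.7%, 95.5% and 100% were recovered, with 8 false calls among the unchanged genes. Low or widely spread genes were not among those changed, and the changed genes were far fewer than the 4687 called. The recovery rates therefore do not hold for low genes, and the false calls do not carry over to the real calls.

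The genes, lists and members were chosen with earlier results of these data known. Genes were named by a rule: the 12 largest called differences each way without overlap and with a higher mean of at least 10 FPKM, up to 4 members per list by smallest p, a fixed set of lineage genes, and the 6 largest called ko against wt differences each way. Upstream windows and symbols came from RefSeq (GRCm38.p6); 24245 of 24347 symbols matched. Alternatives were 23 other settings of pseudocount, filter, scaling, weights, block, zeros, gene set and left-out libraries.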

Additional observations from a re-analysis of the deposited data

Results flagged for a closer look

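Among the fixed lineage genes and the genes named for the largest ko against wt differences, 18 passed the test given here. The 6 largest each way were picked among genes that passed, so 18 is not to be set against the share over all genes. Other list members passed it too. At these 18 the CAR minus PaS difference itself differed between ko and wt by the interaction test (limma, adjusted p under 0.05); the values below are the ko difference minus the wt difference on the log2 scale. Among genes of other cell types, Prss34 changed by 6.28, Mcpt8 by 4.90, Igll1 by -2.59 and Ly86 by -2.13. Among cartilage and joint genes, Lect1 changed by -3.86, Col9a3 by -3.69, Col9a2 by -3.47, Col2a1 by -1.62 and Prg4 by 2.71. Among genes of the stromal and adipocyte programs, Cfd changed by -3.45, Pcsk6 by 2.30, Ackr3 by 1.89, Adgrd1 by 1.88, Ly6a by 1.10, Ly6c1 by 1.04, Pdgfra by 0.52, Adipoq by -0.44 and Alpl by 0.36. Over all tested genes, 7.01% passed the same test.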

How the results depend on the processing

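The count of genes differing stayed within 1.5 times of 4687 in every alternative in which it was taken. It was not taken where a wt library was left out. With 1 ko library left out, it was 4118 to 4298. The interaction count was 656 to 772 when any 1 of 12 libraries was left out. With a pseudocount of 5, 736 genes differed by more than 2-fold, against 1517. Quantile normalization gave 2636 genes higher in CAR ko and 2228 higher in PaS ko. With zeros kept as deposited, Col1a1 was -6.30 and Col1a2 -2.32, both reversed; without CAR ko replicate 1, Col1a1 has no value. With replicate number as a block, 4689 genes were called (2189 and 2500), 869 for the interaction and 5440 in wt; same-numbered CAR ko and PaS ko replicates did not deviate together (correlations -0.0045, -0.039 and -0.026), and no library correlated best with its own number. Of 165 called named genes, 157 were called the same way in every alternative that tested them. The calls of Ccnb1, Aurka, Mcm4, Tnnc2 and Tnnt3 were lost in several, and with the zero of Gsn in PaS wt replicate 2 kept, its ko difference was still -4.28 but its adjusted p was 0.173. Depth is unknown, so the precision of low values cannot be given.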
